A study of Bos taurus with 12 samples.

Results

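The genes that carry calcium through the mammary epithelium into milk, together with the hormone PTHLH, were followed in the mammary gland (MG) of 12 lactating cows. The members were 9 genes chosen by name for their place in this pathway: ATP2B1, ATP2B2, ATP2C1, ATP2C2, ORAI1, STIM1, CASR, PTHLH and TPH1. Array probes were assigned to them through the RefSeq accession given with each probe, and 7 of the 9 genes were matched to 14 of the 43653 probes of the array. ATP2C2 and TPH1 matched no probe by accession and are not analysed here. The array named 12639 genes by this route, through 26832 probes.

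All 12 animals were multiparous Holstein cows in early lactation, at 24 ± 3 days in milk. The 6 control (CONT) cows stayed on the lactation diet offered ad libitum, and the 6 restricted (REST) cows ate a ration diluted with barley straw (48% of dry matter, DM) for 4 days. Every cow, in both groups, received 50 µg of LPS, an endotoxin of bacterial walls that provokes a local inflammation, in a healthy rear gland of the udder on day 3, and MG was biopsied 24 h later. The REST and CONT comparison therefore describes the diet in inflamed glands, and there was no gland without LPS and no biopsy from before the diet. By the methods of the study, the 12 cows are those of a larger experiment whose RNA was of good and even quality, and each array carried the RNA of 1 cow. Cows are numbered within a group in the order of deposit, and the numbers pair no cows.

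Milk is far richer in calcium than blood, and the lactating epithelial cell moves this calcium while keeping its own cytosol almost free of it. Calcium enters through store operated channels, in which STIM1 senses the filling of the endoplasmic reticulum and opens the plasma membrane channel ORAI1. It then leaves toward milk by the pumps of the Golgi, ATP2C1 and ATP2C2, where casein micelles are loaded, and by the plasma membrane pumps ATP2B1 and ATP2B2, the latter being the form of the apical membrane of lactating cells. CASR, the calcium sensing receptor, reads calcium outside the cell. PTHLH, the parathyroid hormone-like hormone made in large amounts by the lactating gland, frees calcium from bone, and TPH1 is the enzyme that limits serotonin synthesis outside neurons.

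A log2 signal in the following is the log2 of a probe's background-corrected intensity minus the 75th percentile of the same array, so that negative values lie below that percentile. Probes differ in how well they bind, and a level of one gene is not set against that of another. "Well above background" is the call of the scanner software. The 75th percentile ranged from 386.9 to 1184 intensity units over the 12 arrays, 57.57 to 78.13% of the probes were well above background, and arrays correlated at 0.9323 to 0.9841 with each other. The arrays came from 3 slides of 4 arrays, with 3 CONT and 1 REST on slide 1, 1 CONT and 3 REST on slide 2, and 2 of each on slide 3. Precision is limited by there being 6 arrays per diet. In a biopsy, fewer cells of a type and less RNA per cell cannot be told apart. Milk protein genes were bright on all arrays, for example CSN1S1, the αs1-casein, with a log2 signal in CONT of 9.03 ± 0.41 and in REST of 9.40 ± 0.54 (mean ± SD, 6 cows each).

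None of the 14 member probes passed an adjusted p of 0.05 between REST and CONT in limma's moderated test. Over the whole array, 0% of the probes passed with either adjustment in the re-analysis of the deposited intensities. The lowest adjusted p of any probe was 0.3 with Westfall-Young, the kind of adjustment that the study used, and 0.777 with Benjamini-Hochberg. These are not counts of the study itself. At an unadjusted p under 0.05 there were 2 member probes of 14, where the array had 2.62% of its probes. Both were dim, 1 of CASR and 1 of STIM1. Among the brightest probes of the member genes there was 1, of CASR, and with only probes well above background there were 0. In no member did the values of REST and CONT cows separate without overlap, and 0.127% of the probes did so over the array. The mean was higher in REST for 7 of the 14 member probes, against 46.1% of all probes, and the median log2 FC (REST minus CONT) was 0.01 over the member probes and -0.02 over the array. In PTHLH, ORAI1, STIM1, ATP2B1 and ATP2C1 the SD between cows of the same diet was 2.11 to 44.4 times the size of the diet difference. It was 0.94 times in ATP2B2, which was dim. In CASR the SD was also smaller than the difference, but no ratio is given because its CONT values were not well above background.

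**Figure D1:**
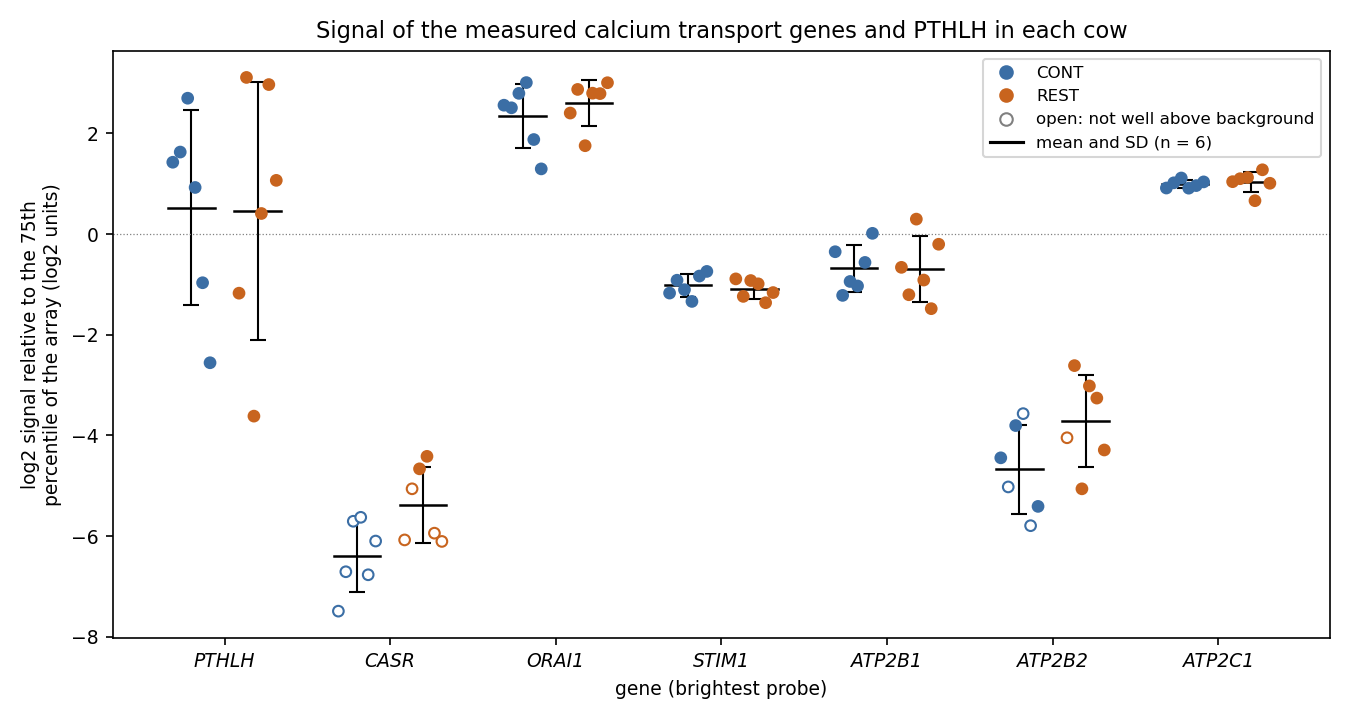
Log2 signal of the brightest probe of each of the 7 measured genes (y axis, log2 units relative to the 75th percentile of the array) in each cow, with CONT in blue, REST in orange, open circles for arrays on which the probe was not well above background, and bars for mean and SD (n = 6). PTHLH spreads from -3.62 to 3.11 while ATP2C1 stays between 0.66 and 1.28, and both groups overlap in every gene.

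PTHLH (NM_174753) was measured by 2 probes, both well above background on all 12 arrays. With probe A_73_P038881, the log2 signal of CONT cows 1 to 6 was 1.43, 1.63, 2.70, 0.92, -0.97 and -2.56. In REST cows 1 to 6 it was -1.17, 3.11, -3.62, 0.41, 2.97 and 1.07. Each diet thus held cows with much PTHLH mRNA, such as CONT cow 3 and REST cows 2 and 5, and cows with little, such as CONT cow 6 and REST cow 3, and the groups overlapped over most of their range. The highest cow had 106 times the PTHLH signal of the lowest, and the range was 38.1-fold within CONT alone. Mean ± SD came to 0.52 ± 1.93 for CONT and 0.46 ± 2.57 for REST (6 cows each). The log2 FC was -0.07 with a standard error (SE) of 1.17 (limma, unadjusted p = 0.957). The 95% interval of this difference ran from -2.61 to 2.48, which in fold terms is 0.164 to 5.58 times the CONT level. The values of these cows do not exclude a diet difference in PTHLH of any size inside these limits.

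The other PTHLH probe, A_73_P262171, gave the same order of cows almost exactly (Pearson r = 0.995 between the probes over 12 cows, permutation p = 1e-05, the smallest that the permutations can give, and Spearman rho = 0.993, permutation p = 1e-05), and r stayed at 0.991 without REST cow 3 and CONT cow 6. Its log2 FC was 0.13 with an SE of 1.18. The sign of the PTHLH difference therefore depended on the probe, and with slide as a block it was -0.83 for the first probe and -0.62 for the second. Within slide 1, slide 2 and slide 3 the difference of the first probe was -1.70, 0.74 and -1.35. Slide 2, with 3 REST arrays, held the higher PTHLH values (0.41 to 3.11), but slide 3 alone covered -3.62 to 2.70.

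The spread of PTHLH was set against all genes by the SD between cows of the same diet. For PTHLH it was 2.27, the eighth largest of the 9000 genes that were well above background on all 12 arrays, among which the median SD was 0.33 and the 90th percentile 0.75. The genes above it were JSP.1, HP, ALOX15, LPL, NEUROD1, C4BPA and SAA2, a group with acute phase proteins (HP, SAA2) and the lipase that takes up blood lipids for milk fat (LPL). The other members among these genes lay well below. ATP2B2 (SD 0.90) and CASR (SD 0.74) are not among them, because both lacked the background call on some arrays. The SD of ATP2B1 was 0.57 and that of ORAI1 0.56, and 20.7 and 21.5% of the genes had a larger SD. STIM1 (0.21) and ATP2C1 (0.16) were among the steady genes, with 81.9 and 94% of the genes varying more.

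CASR (NM_174002), the calcium receptor, was at the lower limit of the array. Its brightest probe, A_73_105648, was not well above background in any CONT cow and was so in REST cows 3 and 4. Log2 signals were -7.49 (lowest), -6.40 (median) and -5.63 (highest) in CONT and -6.10, -5.50 and -4.41 in REST. All 6 REST cows were above the CONT mean, yet the groups overlapped, and the unadjusted p was 0.0232 by limma and 0.0433 by the exact permutation test over the cows (two-sided). The adjusted p was 1 (Westfall-Young). No fold change is given because the CONT values are not well above background and the lower bound of the fold is under 1. The other CASR probe was not well above background on any of the 12 arrays.

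ORAI1 (NM_001099002), the calcium entry channel, was bright in all cows with probe A_73_107427. Its log2 signal was 2.56, 2.51, 2.79, 3.01, 1.88 and 1.29 in CONT cows 1 to 6. In REST cows it was 2.40, 2.87, 1.75, 2.80, 2.79 and 3.00. Most cows of both diets lay near 2.5 to 3, and the low values belonged to CONT cows 5 and 6 and REST cow 3, which also had low PTHLH. Mean ± SD came to 2.34 ± 0.64 for CONT and 2.60 ± 0.46 for REST (6 cows each), with a log2 FC of 0.26 (SE 0.31, 95% interval -0.40 to 0.93). Within the slides it was -0.06, 0.26 and 0.34, and it was 0.05 without CONT cow 6 alone and 0.43 without REST cow 3 alone. The second ORAI1 probe, A_73_P249191, passed the background call in 2 cows of CONT and 4 of REST, and its log2 FC was 0.39 (SE 0.41). Both probes ordered the cows in a related way (r = 0.760, permutation p = 0.00537, and rho = 0.629, permutation p = 0.0327, n = 12), with r = 0.502 without CONT cow 6 and REST cow 3.

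STIM1 (NM_001035409), the sensor that opens ORAI1, hardly moved with its brightest probe, A_73_P045406. Log2 signals ran from -1.34 through a median of -1.01 to -0.74 in CONT and from -1.36 through -1.08 to -0.89 in REST, and the groups overlapped almost entirely. The log2 FC was -0.08 (SE 0.15), and its 95% interval ran from -0.41 to 0.25. The second STIM1 probe, A_73_P204527, was dim, passing the background call in 3 cows of CONT and 2 of REST. Its values ran from -5.31 through -4.70 to -3.93 in CONT and from -6.10 through -5.48 to -4.78 in REST. Each of the 6 REST values lay under the mean of CONT, although the groups overlapped, and the log2 FC was -0.77 (SE 0.27, limma, unadjusted p = 0.0151, adjusted p = 1 by Westfall-Young, exact permutation p = 0.0173), with -1.65, -0.05 and -0.54 within slides 1 to 3. The 2 probes of STIM1 did not order the cows alike (r = 0.0311, permutation p = 0.923, and rho = 0.0629, permutation p = 0.850, n = 12, r = -0.13 without REST cow 5 and CONT cow 6), so that this dim probe and the bright one do not give the same account of STIM1.

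The pumps divided into steady and variable ones. ATP2C1 (NM_175785), the Golgi calcium pump, had 1 probe, A_73_117741, with log2 signals of 0.91 (lowest), 0.99 (median) and 1.11 (highest) in CONT and 0.66, 1.07 and 1.28 in REST. The REST range enclosed the CONT range. Its log2 FC was 0.04 (SE 0.13), with a 95% interval of -0.25 to 0.33. ATP2C1 is therefore the member for which the data set the tightest limit, a fold of 0.841 to 1.26. Without REST cow 5 its log2 FC was -0.0055.

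ATP2B1 (NM_174696), the plasma membrane calcium pump found in most cell types, had 2 probes that were well above background on all arrays. With probe A_73_P332411 the log2 signal in CONT cows 1 to 6 was -0.35, -1.22, -0.94, -1.03, -0.56 and 0.01. In REST cows 1 to 6 it was -0.66, -1.21, 0.30, -0.91, -1.48 and -0.20. The highest values were those of CONT cow 6 and REST cow 3, the 2 cows with the least PTHLH. REST minus CONT, the log2 FC was -0.01 (SE 0.31, 95% interval -0.69 to 0.66), and within slides 1 to 3 it was 0.28, -0.85 and 0.51. For the second probe, A_73_P033766, it was -0.39 (SE 0.29), and the unadjusted p was 0.203 (limma).

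ATP2B2 (NM_001191245), the pump of the apical membrane, was dim on this array. Its brightest probe, A_73_113566, passed the background call in 3 cows of CONT and 5 of REST, and the 4 arrays without that call were the 4 arrays of slide 1. Log2 signals in CONT were -5.79 (lowest), -4.73 (median) and -3.57 (highest), and in REST -5.06, -3.65 and -2.61. REST cows 2, 4 and 5 were above every CONT cow and the remaining REST cows lay among them. The log2 FC was 0.96 (SE 0.48), or 1.94-fold, with a 95% interval of -0.07 to 1.99 (limma, unadjusted p = 0.0657, exact permutation p = 0.0952). REST cows 2, 4 and 5 are also the 3 REST arrays of slide 2, and the difference fell to 0.64 (SE 0.46) with slide as a block, being 0.75, 1.48 and -0.07 within slides 1 to 3. With normexp background correction it was 0.27, and with the mean over all 3 probes 0.26. The part of slide in this difference was not tested further. The second probe, A_73_P063766, passed the background call in 1 cow of CONT and 3 of REST, with a log2 FC of 1.03 (SE 0.57) that rests mostly on values at background. The third, A_73_P144181, did so in 2 cows of CONT and none of REST, with means of -5.59 in CONT and -6.79 in REST and no fold given. Of these 3 probes the first alone passed the background call in most cows, and no direction is read from the other two.

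**Figure D2:**
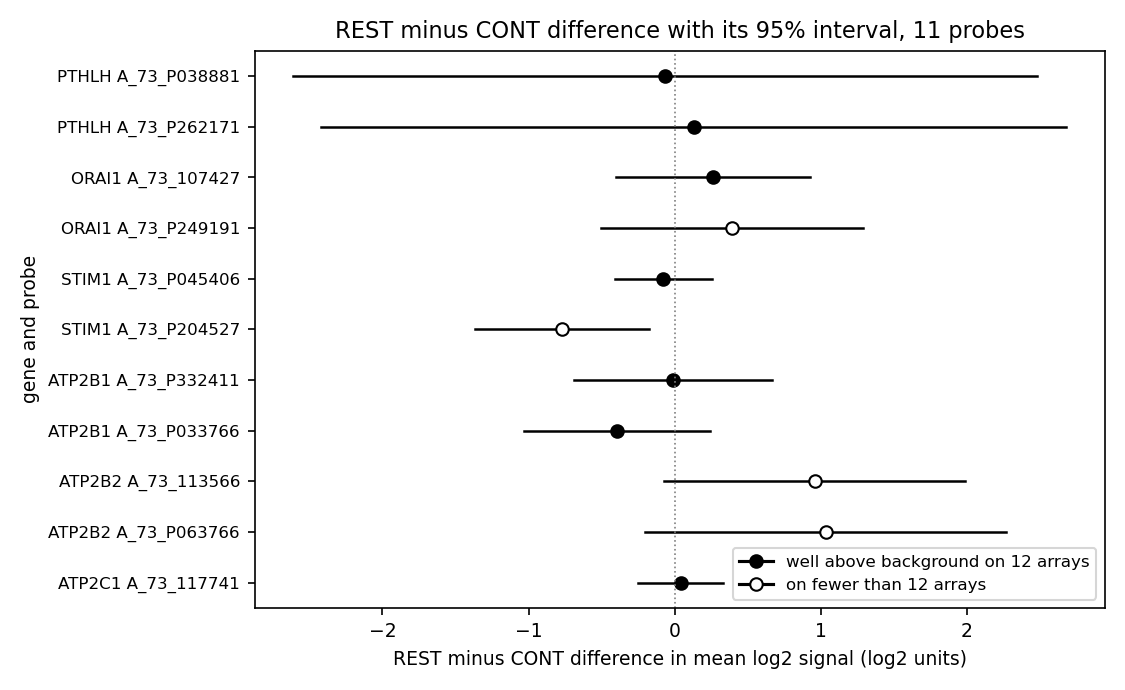
REST minus CONT difference in mean log2 signal (x axis, log2 units) with its 95% interval from limma for the 11 member probes that were well above background on at least 1 array of each group, where filled circles mark probes that were so on all 12 arrays. Only the interval of the dim STIM1 probe excludes 0 before adjustment, and PTHLH has the widest intervals, from -2.61 to 2.48 and from -2.42 to 2.68.

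The cow to cow variation was not independent between members. Pearson and Spearman correlations of the brightest probes were computed over the 12 cows for the 15 pairs of 6 genes, CASR being left out as too dim, with 100000 permutations and Benjamini-Hochberg adjustment over the 15 pairs. The slides hold 4 arrays each, too few for a correlation within a slide, and r is therefore also given after the diet and slide means were removed. All values share the normalization to the 75th percentile of the array.

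PTHLH and ORAI1 varied together (r = 0.818, permutation p = 0.00166, adjusted 0.00829, rho = 0.594, permutation p = 0.0457, adjusted 0.0857). Without REST cow 3 and CONT cow 6, the cows farthest from the median of PTHLH, r was 0.607, and with diet and slide removed it was 0.852. Within CONT alone r was 0.901 and within REST alone 0.877 (n = 6 each). The 4 cows with a PTHLH signal below 0 had ORAI1 signals of 1.29 to 2.40, and the remaining 8 cows had 2.51 to 3.01.

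PTHLH and ATP2B1 went in opposite directions (r = -0.807, permutation p = 0.00155, adjusted 0.00829, rho = -0.762, permutation p = 0.00524, adjusted 0.0283). Without REST cow 3 and CONT cow 6 r was -0.551, and with diet and slide removed -0.838. STIM1 was also lower where PTHLH was high (r = -0.744, permutation p = 0.00603, adjusted 0.0181, rho = -0.692, permutation p = 0.0157, adjusted 0.0470). Its r was -0.698 without the same 2 cows and -0.688 with diet and slide removed. However, the range of STIM1 was only 1.54-fold over all cows, and with normexp background correction r was -0.540 (permutation p = 0.0703). These values are those of the brightest STIM1 probe. The dim second probe did not order the cows like it (r = 0.0311 between the probes) and was not set against PTHLH.

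PTHLH and ATP2B2 also varied together (r = 0.659, permutation p = 0.0211, adjusted 0.0396, rho = 0.601, permutation p = 0.0440, adjusted 0.0857). By r this relation was weaker than that of PTHLH with ORAI1, but not by rho (0.594 with ORAI1), and the difference was not tested. The r of PTHLH with ATP2B2 was 0.531 without the 2 cows named above and 0.665 with diet and slide removed. Leaving out CONT cow 6 alone (r = 0.590, permutation p = 0.0543) or REST cow 2 alone (r = 0.585, permutation p = 0.0617) raised p above the threshold of 0.05. ATP2B2 was closer to ORAI1 (r = 0.778, permutation p = 0.00221, adjusted 0.00829, rho = 0.762, permutation p = 0.00565, 0.765 without CONT cow 5 and REST cow 2). ORAI1 and STIM1, the channel and the sensor that opens it, were opposed with their brightest probes (r = -0.806, permutation p = 0.00065, adjusted 0.00829, rho = -0.769, permutation p = 0.00487). Their r was -0.757 without CONT cow 6 and REST cow 3 and -0.787 with diet and slide removed. ATP2B2 and STIM1 were opposed too (r = -0.720, permutation p = 0.00973, adjusted 0.0243, rho = -0.720, permutation p = 0.0106, r = -0.647 with diet and slide removed). ATP2C1 showed no relation past the threshold with any other member over the 12 cows (r between -0.21 and 0.14, lowest permutation p = 0.536, rho between -0.31 and 0.20, lowest permutation p = 0.332), although its r with PTHLH was 0.513 without REST cow 3 and CONT cow 6 and 0.14 with them.

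**Figure D3:**
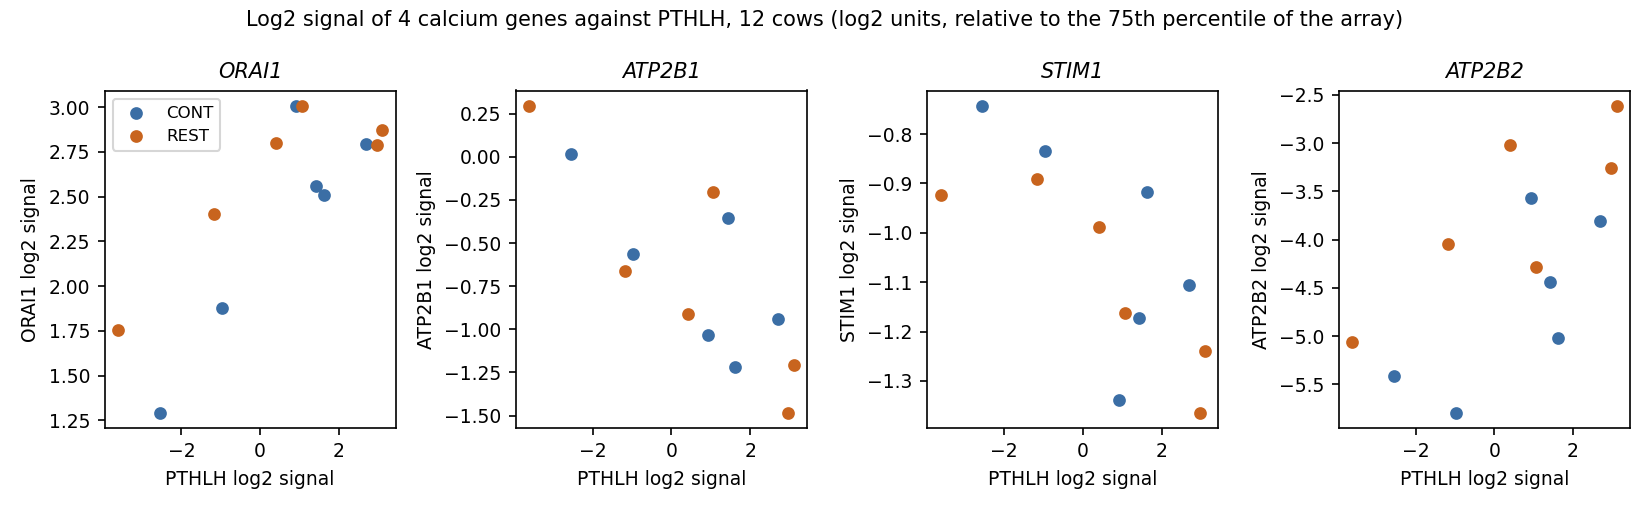
Log2 signal of the brightest probes of ORAI1, ATP2B1, STIM1 and ATP2B2 (y axes) against that of PTHLH (x axis) in the 12 cows. CONT is in blue and REST in orange, in log2 units relative to the 75th percentile of the array. ORAI1 and ATP2B2 tend upward with PTHLH (r = 0.818 and 0.659), ATP2B2 with more scatter, and ATP2B1 and STIM1 tend downward (r = -0.807 and -0.744).

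These relations were not particular to the calcium genes. Of the 8999 genes other than PTHLH with the background call on every array, 26.5% had an absolute r of 0.7 or more with PTHLH, a level chosen after the values were seen, against 3 of the 4 members measured on all arrays (ORAI1, ATP2B1 and STIM1, but not ATP2C1). The genes closest to PTHLH over the 12 cows were WIPI1, a protein of autophagosome formation (r = 0.983), ECHDC1, an enzyme that clears a by-product of fatty acid synthesis (r = 0.981), and MPC1, a subunit of the mitochondrial pyruvate carrier (r = 0.978). The most opposed were PARM1 (r = -0.976), CHST14 (r = -0.970) and LPAR3, a receptor of lysophosphatidic acid (r = -0.967). They were picked as the extremes of all genes and are given as a description. For ATP2B2 the genes most alike were CSF2RB (r = 0.900), ACO1 (r = 0.885) and TRAF4 (r = 0.884), and the most opposed were GNG5 (r = -0.941), NFKB1 (r = -0.933) and NEIL2 (r = -0.919). The ATP2B2 probe lacked the background call on every array of slide 1, and these r are given without removing slide means.

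PTHLH was next set beside markers of the cell types that a biopsy can hold. Of the 12 measured markers of secretory epithelium, 9 had an absolute r of 0.7 or more with PTHLH, but in both directions. ELF5, the transcription factor of secretory differentiation (r = 0.958, rho = 0.916), and LALBA, the α-lactalbumin of lactose synthesis (r = 0.928, rho = 0.853), were higher in cows with more PTHLH. The keratins KRT18 and KRT8 and the marker CDH1 were lower in them (r = -0.881, -0.768 and -0.770). The remaining markers of this list were at 0.90 (CSN1S2), 0.82 (GLYCAM1), 0.77 (CSN1S1), 0.72 (CSN3), 0.59 (PAEP), 0.49 (KRT19) and 0.07 (EPCAM). Across the 12 cows LALBA ran from 6.94 in CONT cow 6 to 10.32 in REST cow 2, which were also among the lowest and the highest in PTHLH. Of the 10 myoepithelial markers, 3 of the 9 that were well above background on all arrays reached this level, against 26.5% of all genes. They were the basal keratins KRT14 (r = -0.922, rho = -0.909), KRT5 (r = -0.852) and KRT17 (r = -0.789), while the remaining markers of the list ran from -0.71 (TP63) through -0.41 (TAGLN), -0.28 (MYH11), -0.25 (ACTA2), -0.06 (MYLK) and 0.08 (CNN1) to 0.50 (OXTR). As means of whole lists, PTHLH had r = 0.663 with secretory epithelium (permutation p = 0.0195, adjusted 0.0778, rho = 0.629, permutation p = 0.0326, 0.435 without REST cow 3 and CONT cow 6) and r = -0.670 with myoepithelium (permutation p = 0.0164, adjusted 0.0778, rho = -0.699, permutation p = 0.0143, -0.583 without the 2 cows). Neither passed the adjustment over the 8 relations computed.

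The other lists and array measures gave r = -0.356 for leukocytes, 0.530 for adipocytes and -0.018 for fibroblasts and endothelium (permutation p = 0.256, 0.0728 and 0.954, rho = -0.441, 0.357 and -0.266), and -0.569, -0.020 and -0.489 without the 2 cows. With diet and slide removed, r was 0.585 for secretory epithelium, -0.785 for myoepithelium, -0.219 for leukocytes, 0.863 for adipocytes and 0.113 for fibroblasts and endothelium. The last list had r = 0.742 within CONT and -0.746 within REST (n = 6 each), and the difference between diets was not tested. These list means average genes of opposite sign. Of the 13 leukocyte markers with the background call on every array, 5 had an absolute r of 0.7 or more, from -0.890 for CD3E to 0.859 for CD4. In the last list COL3A1 and PDGFRA of fibroblasts had r of -0.677 and -0.675, and TEK and KDR of endothelium 0.702 and 0.686. The remaining fibroblast markers were at -0.58 (COL1A1), -0.58 (COL1A2), -0.42 (DCN), -0.12 (LUM) and 0.30 (PDGFRB). Those of endothelium were at 0.49 (CDH5), 0.16 (PECAM1) and 0.09 (VWF). With the 75th percentile of the array itself, PTHLH had r = -0.596 (permutation p = 0.0417, adjusted 0.111, rho = -0.559, permutation p = 0.0635, -0.679 without the 2 cows). Its r with the percentage of probes well above background was -0.369 (permutation p = 0.237, r = 0.18 without the 2 cows). With the log2 intensity of the negative controls r was -0.112 (permutation p = 0.731, r = -0.58 without the 2 cows). Whether the cell makeup of the biopsies or the brightness of the arrays had a part in the PTHLH relations was not tested. The mean log2 signal of the secretory list ran from 5.78 to 6.51 in CONT cows, with a median of 6.26, and from 6.04 to 6.77 in REST cows, with a median of 6.49. That of the leukocyte list ran from 0.32 to 1.06 (median 0.55) and from -0.06 to 1.35 (median 0.85), so that both overlapped between diets. CSN2, ADIPOQ and CSF3R, defining markers of these lists, matched no probe.

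**Figure D4:**
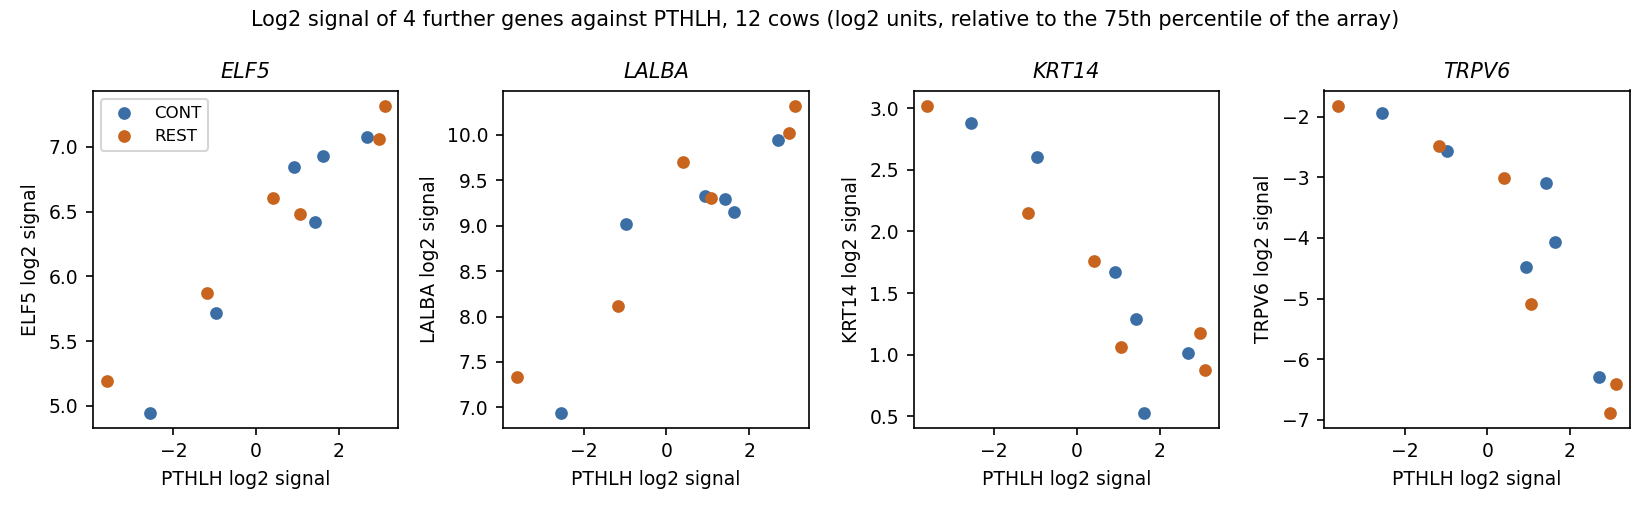
Log2 signal of ELF5, LALBA, KRT14 and TRPV6 (y axes) against that of PTHLH (x axis) in the 12 cows, CONT in blue and REST in orange, in log2 units relative to the 75th percentile of the array. ELF5 and LALBA are high in cows with high PTHLH (r = 0.958 and 0.928) and KRT14 and TRPV6 are low there (r = -0.922 and -0.894). TRPV6 was well above background in 4 cows of each diet only.

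The wider calcium pathway was followed with 7 lists of 105 genes, on calcium pumps and exchangers, entry channels and store release, buffers and sensors, mitochondrial uptake, the PTHLH and vitamin D axis, the serotonin axis, and phosphate and citrate transport. Of these, 80 genes were measured, 38 had a higher and 42 a lower mean in REST. Their median log2 FC was -0.02, as over the array. By limma with either adjustment, 0 of them passed. At an unadjusted p under 0.05 there were 2 (2.5%), and 2.64% of all 12639 named genes. SLC8A1, the plasma membrane sodium and calcium exchanger, had log2 signals of -4.55 (lowest), -3.74 (median) and -2.99 (highest) in CONT and -3.72, -2.74 and -2.45 in REST, so that the groups overlapped. Its log2 FC was 0.88 (SE 0.28, limma, unadjusted p = 0.00847), and 0.63 with slide as a block. TNFRSF11B, the decoy receptor that restrains bone resorption, was well above background in 2 CONT cows and no REST cow (unadjusted p = 0.0253), and no fold is given.

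Partners of the members differed between diets by less than the spread between cows. PTH1R, the receptor of PTHLH, was well above background in all cows, with -3.76 to -2.53 in CONT and -3.55 to -3.07 in REST and a log2 FC of -0.16 (SE 0.20), and an r of -0.30 with PTHLH over the cows. VDR, the vitamin D receptor, showed a log2 FC of 0.03 (SE 0.60) and followed PTHLH among cows (r = 0.826, rho = 0.769). ORAI3, a paralog of ORAI1, showed a log2 FC of -0.04 (SE 0.20) and, unlike ORAI1, was lower where PTHLH was high (r = -0.785, rho = -0.860). The pumps ATP2A2 of the endoplasmic reticulum and ATP2B4 of the plasma membrane showed log2 FCs of 0.02 (SE 0.18) and 0.09 (SE 0.40), and r of 0.11 and -0.43 with PTHLH.

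TRPV6, an epithelial calcium channel of intestine and placenta, was the most variable of these partners. Its log2 signal ran from -6.29 to -1.94 in CONT (median -3.58) and from -6.88 to -1.82 in REST (median -4.05), and it was well above background in 4 cows of each diet. Its log2 FC was -0.54 (SE 0.97). TRPV6 was lowest in CONT cow 3 and REST cows 2 and 5, which had the highest PTHLH (r = -0.894, rho = -0.937). These r and rho include the arrays on which TRPV6 was not well above background, and how far they rest on those arrays was not tested. S100G, the calcium binding protein calbindin-D9k, was well above background in 1 cow of each diet (r = -0.14 with PTHLH). DDC, the second enzyme of serotonin synthesis, was so in 3 CONT and 4 REST cows, with a log2 FC of 0.42 (SE 0.85) and an r of -0.52 with PTHLH. ORAI2, STIM2, TRPV5 and TPH2 matched no probe. Among the 49 genes of these lists with the background call on all 12 arrays, 15 (30.6%) had an absolute r of 0.7 or more with PTHLH, close to the 26.5% of all genes.

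Of the 56 measured cell type markers, 6 (10.7%) had an unadjusted p under 0.05 between diets, against 2.64% of all named genes, and none passed the adjustment by limma. The log2 FC was -0.72 for COL1A1 and -0.65 for COL1A2, the chains of fibrillar collagen (SE 0.31 and 0.27, and -0.39 and -0.45 with slide as a block), and -0.84 for LUM, a proteoglycan of collagen fibers (SE 0.24). Of the other fibroblast markers, COL3A1 and DCN were at -0.60 and -0.38 (SE 0.30 and 0.21), and PDGFRA and PDGFRB at 0.04 and 0.01 (SE 0.36 and 0.26). VWF of endothelium had a log2 FC of 0.79 (SE 0.30). The other endothelial markers were at 0.55 (CDH5), 0.50 (KDR), 0.37 (PECAM1) and 0.35 (TEK), with SE of 0.43, 0.41, 0.36 and 0.38. CD3D of T cells was at 0.60 (SE 0.26), while the other T cell markers were at -0.09 (CD3E), 0.10 (CD4) and -0.22 (CD8A). MS4A1, of B cells, passed the background call in no cow of CONT and 4 of REST, while CD79A, also of B cells, passed it in all cows with a log2 FC of 0.13 (SE 0.21). Their part in the values of the calcium genes was not tested.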

How the data were processed

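One-color Agilent bovine 4 × 44K arrays (Cy3) carried labeled cRNA that the authors amplified from 100 ng of total RNA, 1 cow per array. Each deposited value is a spot intensity, which the authors took from Feature Extraction 11.0.1.1, background-corrected and detrended within the array and not normalized between arrays, and the deposited value table holds the same intensities (largest difference 0). Per the file headers, the annotation is UMD 3.1 and the RefSeq table used for names belongs to another assembly, so that no positions are given, and no sequences were at hand.

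Of 45220 spots, 43803 were not controls. Spots with outlier marks were left out, the log2 intensity minus the 75th percentile of the array was averaged per probe, and dim probes were kept (7052 were never well above background, 205 had a missing value, none of a member, and no member spot was saturated). The probe with the highest mean stands for a gene.

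REST was compared with CONT by limma 3.58.1 (R 4.3.3, lmFit, eBayes, two-sided) over all probes. The adjustment was Westfall-Young, as in the study's methods, with Benjamini-Hochberg beside it. The Westfall-Young adjustment was run here over 100 splits of the cows, of 462 that exist (lowest value 0.01). Exact permutation tests over the cows enumerated 924 assignments (lowest p = 0.00216). Where fold changes are given, both groups were well above background on at least 1 array. Alternatives were quantile normalization, normexp (offset 50, on median spot signals), the value table, a filter on dim probes, outlier spots kept, slide as a block, a trend in eBayes, the mean of all probes of a gene and leaving out each cow, and those for PTHLH's spread and correlations were added after the values were seen. Named genes are all members, listed genes with an unadjusted p under 0.05, 12 partners whatever their values, and the 3 genes most like PTHLH or ATP2B2, and the other listed genes named, by their signal, by their r or beside a marker of the same cells, were chosen after the values were seen. Genes, lists and tests were chosen with earlier results of these data known. The fit was tested on simulated data. Figures were drawn with matplotlib 3.10.9.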

Additional observations from a re-analysis of the deposited data

Results flagged for a closer look

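REST cow 3 stood apart from the other REST cows in the second ORAI1 probe, A_73_P249191. Its log2 signal was -6.28, while the other 5 REST cows lay between -4.40 and -3.82, and the gap was 0.764 of the whole range of the group, above Dixon's critical value for 6 samples. The probe was not well above background on that array. This was 1 of 26 groups examined, of which chance would give about 1.3. The same cow had the lowest PTHLH and the lowest brightest-probe ORAI1 of the REST group.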

How the results depend on the processing

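No probe and no member gene was called under any of the alternatives run, with a lowest Westfall-Young p over the array of 0.11 (only probes well above background) and 381 (normexp) to 1739 (without REST cow 6) probes at an unadjusted p under 0.05. The differences of ORAI1, STIM1 and ATP2B2 kept their direction under all alternatives run (log2 FC 0.05 to 0.43, -0.42 to -0.01 and 0.26 to 1.23), that of ATP2B2 falling to 0.27 with normexp and 0.26 with the mean over its probes. The direction of PTHLH turned with normexp (0.052) and with the mean over its probes (0.033), and leaving out 1 cow gave -0.68 to 0.75, the highest without REST cow 3. That of ATP2B1 turned with slide as a block (0.032) and ranged from -0.21 to 0.14 with 1 cow left out, and that of ATP2C1 from -0.0055 to 0.12. The SD of PTHLH between cows was 1.88 to 2.39 over its alternatives. The r of PTHLH was 0.774 to 0.852 with ORAI1 and -0.868 to -0.707 with ATP2B1; with STIM1 it was -0.540 with normexp (permutation p = 0.0703), and with 1 cow left out it was -0.81 to -0.67 with STIM1 and 0.585 to 0.738 with ATP2B2. The cause was not tested. ATP2B2 has no value under the filter on dim probes, and CASR, too dim for a fold, has none in any setting. No paired analysis was possible because the replicate numbers follow the order of deposit and pair no cows. Faint signal limits ATP2B2, CASR and the second probes of ORAI1 and STIM1.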

Other observations

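SLC34A2, a sodium and phosphate cotransporter of secretory epithelia, varied between cows almost as much as PTHLH, with an SD within diets of 2.12 and log2 signals of -6.22 to -0.25 in CONT and -5.91 to 0.0074 in REST. It was well above background in 5 CONT and 4 REST cows and it followed PTHLH over the 12 cows (r = 0.934, rho = 0.874). ITPR3, a channel that releases calcium from the endoplasmic reticulum, went the other way (r = -0.907, rho = -0.818) with a REST minus CONT difference of 0.04 (SE 0.38, log2). Both genes were chosen after their values were seen, and the relations are given as a description of these 12 cows.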
